A study of Homo sapiens with 4 samples.

Results

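The genes examined were 10 genes of epithelial cell contact: the claudins CLDN1, CLDN3, CLDN4, CLDN6, CLDN7, CLDN10 and CLDN11, the adhesion molecules EPCAM and CDH1, and ESRP1, a regulator of epithelial splicing. They were taken by name, through their Ensembl identifiers, from a table of read counts with 60234 rows, and all 10 were found. RNA sequencing was performed on cells sorted from cardiac differentiations of the NKX2.5:GFP hESC line, a human embryonic stem cell reporter line in which 1 allele of NKX2-5 carries GFP (eGFP/w). Embryoid bodies were given either 1 uM retinoic acid (RA) or the solvent DMSO (CTR) from day 4 to day 7, and were sorted at day 31 into GFP-positive and GFP-negative cells. This gave 4 libraries, called here RA-treated and CTR GFP-positive cells and RA-treated and CTR GFP-negative cells. Every group carried the reporter, all cells came from this single line, and GFP-negative means only that the NKX2-5 reporter was off. Each condition had 1 library, so no difference between conditions could be tested, and all intervals (95% level) cover counting error only.

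Claudins are membrane proteins with 4 transmembrane spans that form the strands of tight junctions, and the set of claudins in an epithelium sets which ions pass between its cells. E-cadherin, the product of CDH1, holds epithelial cells together at adherens junctions, and EPCAM is a surface glycoprotein of many epithelia that binds CLDN7. ESRP1 switches the splicing of transcripts such as those of FGFR2 and CD44 to their epithelial forms. Cardiomyocytes are not epithelial and use N-cadherin (CDH2) at their contacts.

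The 2 GFP-positive libraries held 28125727 (RA) and 28643091 (CTR) counted reads, and the GFP-negative libraries 26222787 (RA) and 4371101 (CTR), so that CTR GFP-negative cells were sequenced up to 6.55 times less deeply than the others. Levels are given as CPM (counts per 1e6 reads, after TMM scaling of the library sizes), and 1 read equalled 0.213 CPM in CTR GFP-negative cells and 0.0349 to 0.0390 CPM in the other libraries. The sorting was checked on NKX2-5, which stood at 463 and 593 CPM in RA-treated and CTR GFP-positive cells and at 9.74 and 14.5 CPM in the corresponding GFP-negative cells. The summed level of 8 cardiomyocyte markers exceeded that of the GFP-negative cells 37.5-fold (RA) and 22.3-fold (CTR) in GFP-positive cells. A bulk library does not separate fewer cells of a type from less RNA of a gene per cell.

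Together the 10 genes had their highest level in RA-treated GFP-negative cells, at 749 CPM from 19226 reads. The sum was 327 CPM in CTR GFP-negative cells (1535 reads), 100.1 CPM in RA-treated GFP-positive cells (2677 reads) and 72.6 CPM in CTR GFP-positive cells (2081 reads). With at least 4 reads taken as detection, all 10 genes were detected in 3 libraries and 9 in CTR GFP-negative cells, where CLDN10 had 2 reads. Among the 7 member claudins, a different one had the most reads in each of 3 libraries: CLDN4 in the RA-treated and CLDN1 in the CTR GFP-negative library, and CLDN6 in the CTR GFP-positive library.

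**Figure D1:**
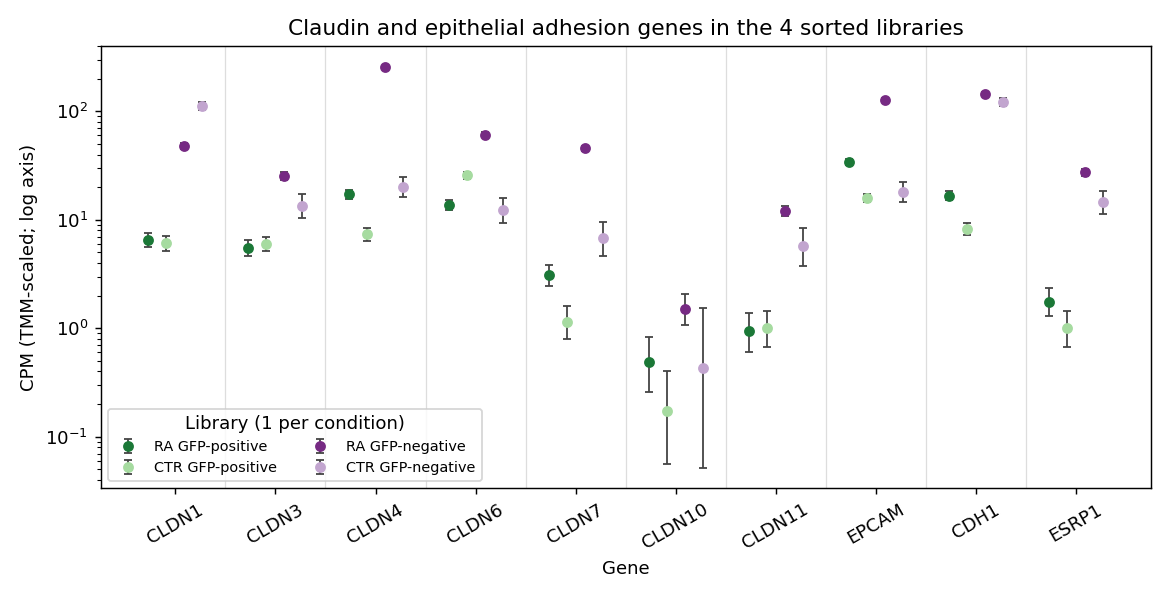
The level of each gene (CPM, log axis) in the 4 libraries, with points for single libraries and bars for exact Poisson 95% intervals of the counts. RA-treated GFP-negative cells (dark purple) were highest for all genes but CLDN1, which peaked in CTR GFP-negative cells at 113 CPM, and CLDN10 stayed below 2 CPM in every library.

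CLDN4, a claudin of many simple epithelia, had 6553 reads in RA-treated and 95 in CTR GFP-negative cells, and 460 in RA-treated and 212 in CTR GFP-positive cells. These counts correspond to 255, 20.2, 17.2 and 7.40 CPM. The RA-treated GFP-negative library stood far above the other 3, whose levels lay within 3-fold of each other. Between RA-treated and CTR cultures CLDN4 was 12.6-fold higher in GFP-negative cells (interval 10.3 to 15.6) and 2.32-fold higher in GFP-positive cells (interval 1.97 to 2.75).

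CLDN3, a paralog of CLDN4 that lies 29271 bases from it on chromosome 7, varied much less. It was at 25.3 CPM (649 reads) in RA-treated and 13.4 CPM (63 reads) in CTR GFP-negative cells, a ratio of 1.89 (interval 1.45 to 2.48). The GFP-positive cells had 5.50 CPM (147 reads) with RA and 6.04 CPM (173 reads) without, and the interval of the ratio (0.726 to 1.14) included 1. No sequence of 75 bases, the length of the reads, was shared between the transcripts of any of the 10 genes.

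CLDN7, the claudin that binds EPCAM, had the same order of levels over the libraries as CLDN4, at lower counts. It had 1167 reads (45.5 CPM) in RA-treated GFP-negative cells, 32 (6.81 CPM) in CTR GFP-negative cells, 82 (3.07 CPM) in RA-treated GFP-positive cells and 33 (1.15 CPM) in CTR GFP-positive cells. With RA it was 6.67-fold higher in GFP-negative cells (interval 4.70 to 9.80) and 2.66-fold higher in GFP-positive cells (interval 1.76 to 4.12). Of its exon bases, 10.8% are shared with another gene of the same strand, ENSG00000262302, so that reads lying wholly there could not be assigned.

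EPCAM was at 127 CPM (3267 reads) in RA-treated GFP-negative cells and at 18.1 CPM (85 reads) in CTR GFP-negative cells, a ratio of 7.03 (interval 5.67 to 8.83). The levels in GFP-positive cells were 34.3 CPM (918 reads) with RA and 15.9 CPM (456 reads) without, a ratio of 2.16 (interval 1.93 to 2.42). The level in CTR GFP-negative cells was close to that in CTR GFP-positive cells, with a ratio of 1.14 whose interval (0.892 to 1.44) included 1.

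CDH1 did not share this pattern. It was at 146 CPM (3741 reads) in RA-treated and 122 CPM (575 reads) in CTR GFP-negative cells, a ratio of 1.19 (interval 1.09 to 1.30). In GFP-positive cells it was at 16.7 CPM (446 reads) and 8.24 CPM (236 reads), a ratio of 2.02 (interval 1.73 to 2.38). On the log2(CPM + 1) scale this difference was 0.94, and 0.26 when the libraries were thinned to the depth of the smallest. Both GFP-negative libraries thus lay well above both GFP-positive ones, and the largest difference for CDH1 was between fractions rather than between cultures.

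CLDN1, a claudin of the epidermal barrier that is also found in many other epithelia, went the other way. It was at 113 CPM (530 reads) in CTR GFP-negative cells and 48.1 CPM (1233 reads) in RA-treated GFP-negative cells, 2.35-fold lower with RA (interval 2.12 to 2.60). In GFP-positive cells it was at 6.54 CPM (175 reads) with RA and 6.07 CPM (174 reads) without, and the interval of this ratio (0.869 to 1.34) included 1. CLDN1 was the only one of the 10 genes that was lower with RA in GFP-negative cells.

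CLDN6, known from early embryonic epithelia and from pluripotent stem cells, moved in opposite directions in the 2 fractions. In GFP-negative cells it was at 61.0 CPM (1565 reads) with RA and 12.4 CPM (58 reads) without, 4.94-fold higher (interval 3.80 to 6.53). In GFP-positive cells it was at 13.6 CPM (364 reads) with RA and 25.6 CPM (734 reads) without, 1.88-fold lower (interval 1.66 to 2.14). The pluripotency markers, 6 genes that include POU5F1 and NANOG, had a summed level of 63.6 CPM in RA-treated and 20.0 CPM in CTR GFP-negative cells, and of 5.35 and 1.08 CPM in RA-treated and CTR GFP-positive cells, so that CTR GFP-positive cells had the second highest CLDN6 and the lowest of these sums.

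CLDN9, the neighbour of CLDN6 on chromosome 16 with 206 bases between them, was looked at after its values had been seen. It was at 8.73 CPM (224 reads) and 2.98 CPM (14 reads) in RA-treated and CTR GFP-negative cells and at 6.06 CPM (162 reads) and 10.3 CPM (294 reads) in RA-treated and CTR GFP-positive cells. It was therefore higher with RA in GFP-negative cells (ratio 2.93, interval 1.71 to 5.44) and lower in GFP-positive cells (ratio 0.590, interval 0.484 to 0.718), the same directions as CLDN6. For CLDN6, 2.65% of its 75-base windows also occur in another gene, ENSG00000223503, and CLDN9 was not checked for this.

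CLDN11, a claudin of myelin, testis and the inner ear, was at 12.1 CPM (310 reads) in RA-treated and 5.75 CPM (27 reads) in CTR GFP-negative cells, a ratio of 2.10 (interval 1.42 to 3.24). Its levels in GFP-positive cells were 0.935 CPM (25 reads) and 1.01 CPM (29 reads). Its difference between the GFP-positive libraries lay within the counting error, with a ratio of 0.924 (interval 0.519 to 1.63).

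CLDN10, a claudin of kidney and glands, had 39 reads in RA-treated and 2 in CTR GFP-negative cells, and 13 in RA-treated and 5 in CTR GFP-positive cells. These equal 1.52, 0.426, 0.486 and 0.174 CPM. No difference with RA was detectable at this depth, with intervals of the ratio from 0.924 to 30.5 in GFP-negative and from 0.932 to 9.98 in GFP-positive cells. In addition, 46.0% of its exon bases overlap exons of DZIP1 on the opposite strand, and since strand was not used in the counting, its counts are uncertain.

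ESRP1 was at 27.4 CPM (702 reads) in RA-treated and 14.5 CPM (68 reads) in CTR GFP-negative cells, a ratio of 1.89 (interval 1.47 to 2.46). In GFP-positive cells it was at 1.76 CPM (47 reads) and 1.01 CPM (29 reads), a ratio of 1.74 (interval 1.07 to 2.86). On the log2(CPM + 1) scale this difference was 0.45. It was 0.18 with libraries thinned to the depth of the smallest and 0.17 with a pseudocount of 5 CPM. Like CDH1, ESRP1 differed more between fractions than between cultures.

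For comparison over all genes, differences were taken as log2(CPM + 1), and a gene was called when it differed at least 2-fold on this scale and reached 10 CPM in either library. A gene that reached 10 CPM in only 1 of the compared libraries could therefore be called only in the direction of that library. In GFP-negative cells, 4.95% of 11606 genes were called higher and 3.18% lower with RA. Of the 9 members that reached 10 CPM there, 4 were called higher (CLDN4, CLDN6, CLDN7 and EPCAM), 1 was called lower (CLDN1) and 4 lay within 2-fold (CLDN3, CLDN11, CDH1 and ESRP1). In GFP-positive cells, 4.14% of 11186 genes were called higher and 1.67% lower with RA, and of the 4 members that reached 10 CPM, 2 were called higher (CLDN4 and EPCAM) and none lower. Only 1 was called with library size alone as the scaling and 0 with a pseudocount of 5 CPM. The median difference over the 10 members was 0.91 in GFP-negative cells and 0.40 in GFP-positive cells, where pseudocounts of 5 and 0.25 CPM gave 0.13 and 0.73. Over all genes with at least 4 reads in either library it was 0.16 (25190 genes) and 0.0023 (26551 genes).

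**Figure D2:**
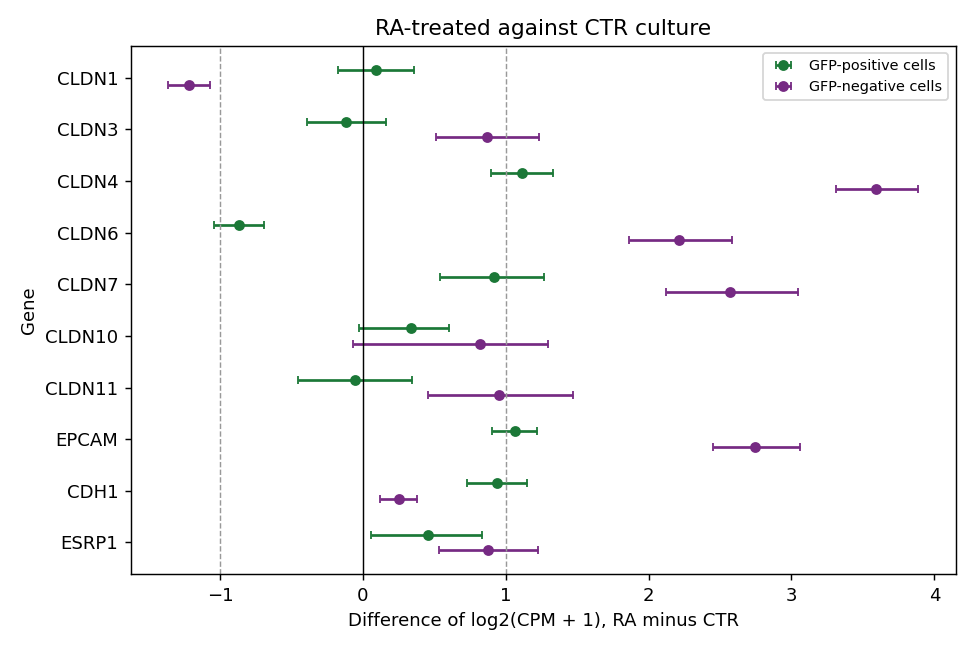
The RA minus CTR difference of log2(CPM + 1) for each gene in GFP-positive (green) and GFP-negative cells (purple), with bars for Clopper-Pearson 95% intervals of the counts and dashed lines at a 2-fold difference. CLDN4 stood at 3.59 in GFP-negative cells, CLDN1 at -1.22, and CLDN6 lay on opposite sides of 0 in the 2 fractions, at 2.21 and -0.87.

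Between fractions no member was called higher in GFP-positive cells. In RA-treated cultures, 12.4% of 11850 genes were called lower and 9.97% higher in GFP-positive cells, and all 9 members that reached 10 CPM were called lower. Of these, CLDN1, CLDN3, CLDN7, CLDN11 and ESRP1 reached 10 CPM only in the GFP-negative library and could not have been called higher. The ratios of the 9 members ran from 3.71-fold lower for EPCAM (interval 3.45 to 4.00) to 15.6-fold lower for ESRP1 (interval 11.6 to 21.4), with CLDN4 and CLDN7 both at 14.8-fold lower. In CTR cultures, 13.3% of 11806 genes were called lower and 11.9% higher, and of the 7 members that reached 10 CPM, 5 were called lower (CLDN1, CLDN3, CLDN4, CDH1 and ESRP1) and none higher. All 5 reached 10 CPM only in the GFP-negative library. In this culture GFP-positive cells were 18.6-fold lower for CLDN1 (interval 15.6 to 22.2), 14.9-fold for CDH1 (interval 12.8 to 17.4) and 14.3-fold for ESRP1 (interval 9.14 to 22.9). EPCAM lay within 2-fold, as given above, and CLDN6 was 2.07-fold higher in CTR GFP-positive cells (interval 1.59 to 2.76), a difference that is 1.00 on the log2(CPM + 1) scale and just below the threshold. The median difference over the 10 members was -1.54 in CTR and -2.73 in RA-treated cultures, against 0.19 and -0.013 over all genes with at least 4 reads. Both medians were nearer to no difference with a pseudocount of 5 CPM, and the count called lower in CTR cultures depended on the thresholds, as given below. The comparisons within a culture and those within a fraction share libraries and are not independent of each other.

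**Figure D3:**
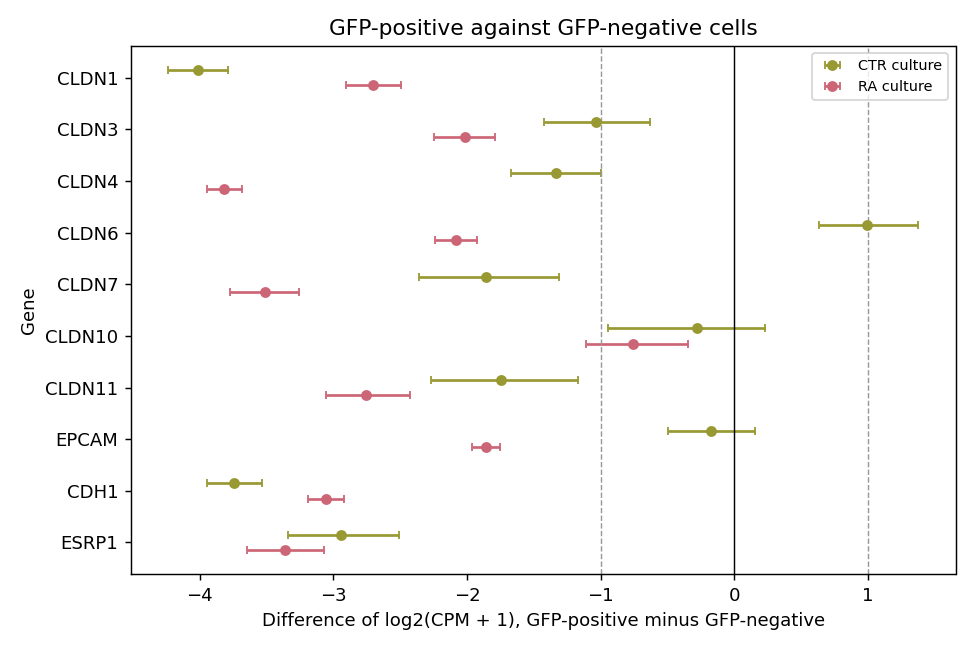
The GFP-positive minus GFP-negative difference of log2(CPM + 1) for each gene in CTR (olive) and RA-treated (pink) cultures, with Clopper-Pearson 95% intervals and dashed lines at a 2-fold difference. All genes lay below 0 in RA-treated cultures, CLDN1 and CDH1 were lowest in CTR cultures at -4.01 and -3.74, and CLDN6 was the only gene above 0, at 1.00 in CTR cultures.

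The composition of the claudin reads does not depend on the scaling between libraries. CLDN1 took 65.7% of the reads of the 7 claudins in CTR GFP-negative cells (530 of 807, interval 62.3 to 69.0%) but 10.7% in RA-treated GFP-negative cells (1233 of 11516, interval 10.1 to 11.3%). CLDN4 took 56.9% in RA-treated GFP-negative cells (interval 56.0 to 57.8%) and 11.8% in CTR GFP-negative cells (interval 9.63 to 14.2%). The leading one of the 7 claudins in the GFP-negative fraction was thus a different one in each culture.

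In GFP-positive cells CLDN6 took 54.0% of the claudin reads without RA (interval 51.3 to 56.6%) and 28.8% with RA (interval 26.3 to 31.3%). CLDN4 took 15.6% without RA (interval 13.7 to 17.6%) and 36.3% with RA (interval 33.7 to 39.1%). These shares are not corrected for gene length. Per kilobase of exon, CLDN6 stayed above CLDN4 in RA-treated GFP-positive cells, at 7.83 against 3.66 CPM per kb. By canonical transcript length they were at 9.96 and 10.1 CPM per kb. The shares of CLDN1 were close in these libraries, at 12.8% and 13.8%, as were those of CLDN3, at 12.7% and 11.6%, with overlapping intervals for both.

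**Figure D4:**
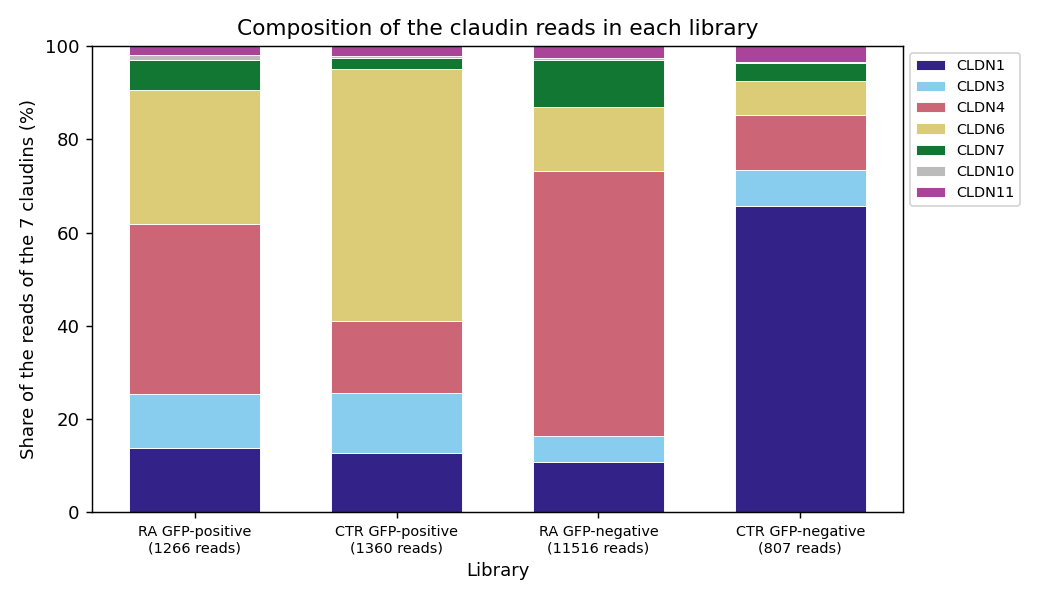
Stacked bars of the share (%) of each of the 7 claudins in their summed reads, 1 bar per library, with the number of reads under each bar. CLDN1 (dark blue) filled 65.7% of the bar of CTR GFP-negative cells, CLDN4 (rose) 56.9% of that of RA-treated GFP-negative cells and CLDN6 (yellow) 54.0% of that of CTR GFP-positive cells.

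Set against CDH1 in the same library, the genes fell into separate patterns. CTR GFP-negative cells had 14.8 EPCAM reads per 100 CDH1 reads (interval 11.6 to 18.6), and RA-treated GFP-negative cells had 87.3 (interval 83.3 to 91.6). CTR and RA-treated GFP-positive cells had 193 (interval 165 to 227) and 206 (interval 184 to 231). EPCAM was therefore lowest relative to CDH1 in the CTR GFP-negative library. ESRP1 stayed between 10.5 and 18.8 reads per 100 CDH1 reads in all 4 libraries. CLDN4 was at 16.5 (interval 13.2 to 20.6) in CTR GFP-negative, 175 (interval 168 to 182) in RA-treated GFP-negative, 89.8 (interval 74.3 to 109) in CTR GFP-positive and 103 (interval 90.3 to 118) in RA-treated GFP-positive cells.

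Levels can be ranked between genes only per length. Per kilobase of exon, CLDN4 and EPCAM were the highest members in RA-treated GFP-negative cells, at 54.3 and 52.4 CPM per kb with overlapping intervals, and exceeded CLDN6 at 35.1 and CDH1 at 24.0 CPM per kb. In CTR GFP-negative cells the order began with CLDN1 at 31.1 and CDH1 at 20.2 CPM per kb, followed by CLDN3 at 10.5, EPCAM at 7.45 and CLDN6 at 7.10 CPM per kb, and these last 3 did not differ beyond the overlap of their counting intervals. In CTR GFP-positive cells CLDN6 led at 14.7 CPM per kb, and in RA-treated GFP-positive cells EPCAM led at 14.1 CPM per kb. The gene model of CLDN4 has 4699 exon bases, but its canonical transcript has 1695. With canonical lengths CLDN4 stood at 151 and EPCAM at 82.3 CPM per kb in RA-treated GFP-negative cells, and the leading gene of each library was the same. The order below the leading genes depended on the length used, and in CTR GFP-negative cells CLDN4 was at 4.31 CPM per kb and rank 6 by exon bases and at 11.9 CPM per kb and rank 3 by canonical lengths, ahead of CLDN3.

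The RefSeq promoter table (GRCh38.p14) held entries for the 7 claudins and not for EPCAM, CDH1 and ESRP1. The 250 bases before the start were searched on both strands for CAGGTG, an E-box bound by SNAI and ZEB repressors of epithelial genes, AGGTCA, the single site of retinoic acid receptors, its direct repeat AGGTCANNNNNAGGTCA, and AACCGGTT, a site of the epithelial grainyhead factors. Of 35116 such windows of all genes, 17.5% held CAGGTG, 12.1% AGGTCA, 0.00285% the direct repeat and 0.117% AACCGGTT. CLDN1, CLDN3, CLDN6, CLDN10 and CLDN11 held none of these letters. GRCh37 positions are those where the same letters were found. CLDN1 is shown as the member claudin that was lower with RA in GFP-negative cells. CLDN3 is shown as the one that varied least among the member claudins above 10 CPM in both GFP-negative libraries. The windows of CLDN1 and CLDN3 lie at chr3:190040236-190040485 (minus strand, 68.8% G or C, 121 bases overlapping an exon of CLDN16) and chr7:73184601-73184850 (minus strand, 71.6% G or C, in no annotated transcript).
CLDN1: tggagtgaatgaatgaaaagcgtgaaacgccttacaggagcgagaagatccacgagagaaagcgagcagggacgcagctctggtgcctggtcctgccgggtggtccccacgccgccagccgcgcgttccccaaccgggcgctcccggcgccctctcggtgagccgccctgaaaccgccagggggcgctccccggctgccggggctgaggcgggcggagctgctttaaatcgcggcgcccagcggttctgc
CLDN3: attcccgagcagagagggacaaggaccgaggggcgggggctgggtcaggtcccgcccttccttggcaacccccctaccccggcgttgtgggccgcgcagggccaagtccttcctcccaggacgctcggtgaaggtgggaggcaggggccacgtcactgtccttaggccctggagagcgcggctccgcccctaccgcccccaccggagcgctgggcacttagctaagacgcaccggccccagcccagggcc

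CLDN4 and CLDN7, the member claudins with the largest RA differences in GFP-negative cells, held matches, and 24 bases around each are shown with the match in capitals. The first CLDN7 window held CAGGTG or its reverse complement 4 times, as did 43 of the 35116 windows (at least 4 times, 0.122%), and AGGTCA once. The second CLDN7 window, before the upstream start, and the CLDN4 window each held AGGTCA or its reverse complement once. No matches overlapped each other, and no binding was measured here. The first stretch is at chr7:73245098-73245121 (plus strand) and the others, on the minus strand, are at chr17:7165957-7165980, chr17:7165918-7165941, chr17:7165892-7165915, chr17:7165798-7165821 and, for the upstream start, chr17:7166559-7166582, all GRCh37. The CLDN4 window and the first CLDN7 window lie within bases annotated as untranslated exon in other transcripts of these genes.
CLDN4: tctcccgggTGACCTcagcatggg
CLDN7 site A: cttcctcctCACCTGggcaaggag
CLDN7 site B: cttccggttCAGGTGagtgtccct
CLDN7 site C: ggtgacgtcAGGTCAtcctcggcc
CLDN7 sites D and E: tactCAGGTGcgcccCACCTGtcc
CLDN7 upstream start: ccaagactcTGACCTagccctcac

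Among other genes of epithelial contact, the claudin family as a whole had 23 matched genes, of which 10 reached 10 CPM in GFP-negative cells, 4 were called higher and 1 lower with RA, against 4.95% and 3.18% of all genes. Besides the members, CLDN18, a claudin of stomach and lung, was called higher with RA in these cells, at 20.0 CPM (512 reads) against 1.28 CPM (6 reads). In GFP-positive cells it was lower with RA, at 1.35 CPM (36 reads) against 2.34 CPM (67 reads), and its log2(CPM + 1) differences of 3.20 and -0.51 thus lay further apart than those of CLDN6, by 3.71. CLDN15, an intestinal claudin, was lower, at 50.2 CPM (1289 reads) against 99.7 CPM (468 reads), 1.98-fold (interval 1.78 to 2.21) and within the threshold. CLDN5, the main claudin of endothelium, was at 29.3 CPM (752 reads) and 21.5 CPM (101 reads), and CLDN12 at 40.3 CPM (1035 reads) and 46.4 CPM (218 reads). In GFP-positive cells CLDN12 was at 41.5 CPM (1109 reads) with RA and 52.0 CPM (1489 reads) without, more reads than any of the 7 member claudins there.

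For other components of these junctions the counts with RA in GFP-negative cells, where 4.95% of all genes were called higher and 3.18% lower, were too few to set apart from those shares. Of 20 matched tight junction proteins other than claudins, 15 reached 10 CPM, 1 was called higher and none lower. That gene was TJP3 (ZO-3), a scaffold below the junction, at 12.6 CPM against 4.69 CPM, whereas CGN (cingulin) was at 52.1 against 82.2 CPM. Of 10 matched adherens junction genes, CDH1 among them, all reached 10 CPM and only NECTIN4 was called, higher at 13.9 against 2.98 CPM. Of 10 desmosome genes, 9 reached 10 CPM and only PKP3, a plakophilin of epithelial desmosomes, was called, higher at 36.7 against 4.90 CPM. Median differences over all matched genes were 0.22, 0.23 and -0.087 for these 3 lists. CDH2, the cadherin of cardiomyocytes, was at 233 and 267 CPM in the GFP-negative and 260.0 and 262 CPM in the GFP-positive libraries, with RA first.

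Among regulators and other epithelial genes, 3 of 7 and 14 of 21 were called higher with RA in GFP-negative cells, against 4.95% of all genes. Of 14 epithelial regulators, ESRP1 among them, 7 reached 10 CPM in GFP-negative cells, 3 were called higher and none lower, with a median difference of 0.87. Among those called higher were GRHL2, a grainyhead factor that activates CDH1 and claudin genes, at 16.0 against 4.90 CPM, and ELF3 at 73.7 against 32.4 CPM. ESRP2 was within the threshold, at 21.0 against 11.9 CPM. Of 22 other epithelial genes, EPCAM among them, 21 reached 10 CPM, 14 were called higher and none lower, with a median difference of 1.33. CDH17, a cadherin of intestine and fetal liver, was at 60.3 CPM (1547 reads) against 0.426 CPM (2 reads), a ratio of 142 (interval 39.1 to 1170), and FXYD3 at 14.2 against 1.49 CPM. In GFP-positive cells 2 of the 9 genes of this list that reached 10 CPM were called higher, EPCAM and PRSS8, against 4.14% of all genes.

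Of 10 genes of epithelial-mesenchymal transition, 9 reached 10 CPM in GFP-negative cells, and 2 were called higher with RA (4.95% of all genes) and none lower (3.18% of all genes), with a median difference of 0.53. TWIST1 was at 90.2 CPM (2315 reads) against 13.6 CPM (64 reads), and SNAI1 at 22.3 CPM (573 reads) against 4.69 CPM (22 reads). ZEB1 was at 32.1 and 32.8 CPM and ZEB2 at 75.6 and 66.2 CPM in these libraries. In GFP-positive cells 2 of the 7 that reached 10 CPM, FN1 and ZEB2, were called higher, against 4.14% of all genes, ZEB2 at 59.0 CPM with RA and 25.0 CPM without.

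In GFP-positive cells 4.14% of all genes were called higher and 1.67% lower with RA, and of 8 desmosome genes that reached 10 CPM 2 were called higher and 1 lower. PKP2, the plakophilin of cardiac desmosomes, was lower, at 114 CPM against 367 CPM, while PKP1 was higher, at 32.3 against 4.61 CPM, as was DSC3. No other tight junction protein, adherens junction gene or epithelial regulator was called in this comparison, where 12, 9 and 1 of them reached 10 CPM, too few to set apart from the shares over all genes.

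Between fractions, 12.4% of all genes were called lower in GFP-positive cells in RA-treated and 13.3% in CTR cultures. In RA-treated cultures, of the genes that reached 10 CPM, 9 of 10 claudins, 5 of 15 other tight junction proteins, 2 of 10 adherens junction genes, 3 of 9 desmosome genes, 6 of 7 epithelial regulators, 18 of 21 other epithelial genes and 5 of 9 genes of epithelial-mesenchymal transition were called lower, and 1 of 9 desmosome genes, PKP1, was called higher, against 9.97% of all genes. In CTR cultures the numbers called lower were 5 of 8, 4 of 14, 1 of 9, 3 of 7, 4 of 6, 6 of 10 and 5 of 8 in the same order. The adherens junction counts were close to the share over all genes in both cultures. Members already counted above are among the genes called lower. In RA-treated cultures these were CLDN1, CLDN3, CLDN4, CLDN6, CLDN7, CLDN11, CDH1, ESRP1 and EPCAM, and in CTR cultures CLDN1, CLDN3, CLDN4, CDH1 and ESRP1. Genes that reached 10 CPM only in the GFP-negative library could not have been called higher. In CTR cultures, where 11.9% of all genes were called higher, CLDN9 (1 of 8 claudins), NECTIN1 (1 of 9 adherens junction genes) and PKP2 (1 of 7 desmosome genes) were called higher.

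Markers of other cell types also differed between the GFP-negative libraries, and their part in the results was not tested. The 10 matched gut and liver endoderm markers summed to 791 CPM with RA and 305 CPM without, and without GATA4, which heart muscle also expresses, to 599 and 91.6 CPM. Of 9 that reached 10 CPM, GATA4 included, 6 were called higher and 1 lower, against 4.95% and 3.18% of all genes. The 6 called higher reached 10 CPM only with RA and could not have been called lower, so that this count is a description only. AFP made up 465 CPM of the sum with RA, at 2.98 CPM without. TTR went the other way, at 11.7 CPM with RA and 73.0 CPM without, most of the sum without GATA4 there, and SOX17 was at 7.13 and 10.2 CPM. FOXA2 had 240 reads with RA and none without. The 6 surface ectoderm and amnion markers summed to 205 and 43.2 CPM, and of 4 that reached 10 CPM 3 were called higher and none lower. These 3 also reached 10 CPM only with RA. GABRP made up most of the sum with RA, at 133 CPM against 9.16 CPM, and VTCN1 had 528 reads with RA and none without. The keratins KRT5 and KRT14 differed little, at 26.6 against 23.0 CPM and 3.27 against 3.62 CPM. Both sums were higher with RA, as were the pluripotency sum given above and the fibroblast sum given below.

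The other marker sums differed in either direction. The 9 neural and eye markers summed to 175 CPM with RA and 755 CPM without, of which PMEL, a pigment cell gene, had 48.2 and 444 CPM, and the sum was thus lower with RA. Of 7 of these genes that reached 10 CPM, 6 were called lower and 1 higher, against 3.18% and 4.95% of all genes, the 1 called higher being the neuronal gene STMN2 at 72.7 CPM with RA and 16.8 CPM without. The 5 epicardium and mesothelium markers summed to 262 and 445 CPM, the 4 matched endothelium markers, CLDN5 among them, to 246 and 280 CPM, the 6 fibroblast markers to 49055 and 25675 CPM and the cardiomyocyte markers to 437 and 878 CPM. None of these 4 lists had a gene at 0 in either library. Between the fractions of RA-treated cultures, the endothelium sum was 18.5-fold lower in GFP-positive cells and the epicardium and mesothelium sum 9.12-fold. The amnion sum was 10.1-fold and the fibroblast sum 3.69-fold lower there, and of all marker sums only that of cardiomyocytes was higher. The part of these cell types in the fraction differences of the members was not tested. Among GFP-positive cells the endoderm sum without GATA4 was 32.3 CPM with RA and 6.46 CPM without, with FOXA1, FOXA2, HNF4A and CDX2 at 0 without RA. The amnion sum was 20.3 and 6.87 CPM, and the fibroblast sum 13308 and 3544 CPM, all higher with RA.

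As a further description, the genes with a profile most like that of EPCAM were sought by the Euclidean distance of mean-centred log2(CPM + 1) over the 4 libraries. Among 12406 genes that reached 10 CPM in at least 1 library, the nearest 5 were LCP1, REG3G, CRHBP, RFLNA and CALCRL, at distances of 0.37 to 0.53. LCP1 was at 8.82 and 2.48 CPM in RA-treated and CTR GFP-positive cells and at 34.2 and 4.26 CPM in RA-treated and CTR GFP-negative cells. The nearest member was CLDN6 at a distance of 1.49 and rank 296, followed by CLDN3 (1.65, rank 525), CLDN4 (1.67, rank 563) and CLDN7 (1.68, rank 581), whereas CDH1 (2.96) and CLDN1 (3.71) were far. CLDN10, below 10 CPM, was not compared.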

How the data were processed

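RNA from 4 FACS-sorted populations, 1 library each, was sequenced by the authors with strand-specific libraries of paired 75-base reads. Per the labels and the methods, the authors trimmed with SICKLE, mapped to a modified hg19 assembly with GSNAP keeping unique alignments, used SAMtools 0.1.18, and deposited raw read counts per Ensembl gene from HTSeq 0.6.1p1 without strand. The Ensembl release is not given in the sources used here. Unique alignment undercounts genes with near-identical copies, and unstranded counting cannot assign reads on bases shared by overlapping genes.

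Counts were scaled with TMM factors (0.951 to 1.07) from edgeR 4.0.16 in R 4.3.3, and differences were taken on log2(CPM + 1), without a test. Ratios carry Clopper-Pearson and CPM exact Poisson 95% intervals. Amplified reads are not independent molecules, so that these intervals cover counting error only. The calculation was tested on simulated counts. Symbols matched 55538 of 60234 rows. Positions and lengths are from GENCODE lifted to GRCh37. PECAM1 was not analysed here, and not every list gene is reported by name. Named genes were all 10 members, up to 4 genes per list with the largest RA difference in GFP-negative cells, the 5 nearest to EPCAM, and NKX2-5. Other named genes were chosen after their values were seen. The members and lists were chosen with earlier results of these data known. The alternatives were 5 other scalings, pseudocounts of 0.25 and 5 CPM, thinned libraries, other minimum levels and a 4-fold threshold, and, chosen after seeing the data, canonical transcript lengths and an endoderm list without GATA4.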

Additional observations from a re-analysis of the deposited data

Results flagged for a closer look

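CLDN6 was singled out because RA-treated and CTR libraries differed in opposite directions in the 2 fractions. The RA minus CTR difference of log2(CPM + 1) was 2.21 in GFP-negative cells (interval 1.86 to 2.59) and -0.87 in GFP-positive cells (interval -1.04 to -0.69), so that the fractions differed by 3.08. With 1 library per condition, this difference between the fractions was not tested. It kept both directions under all 8 alternatives of scaling, pseudocount and depth, with values from 1.93 to 2.28 in GFP-negative and from -0.93 to -0.72 in GFP-positive cells. Opposite directions beyond counting error were not particular to CLDN6. They were also found in other listed genes, among them CLDN9, CLDN18, TJP3, NECTIN1, KRT19 and DSC3.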

How the results depend on the processing

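No paired analysis was possible because each condition had 1 library and the labels give no shared replicate numbers. Under 8 alternatives of scaling, pseudocount and depth, 275 of 320 differences of single members stayed within their counting interval and 45 moved beyond it, and in 37 of 40 pairs of member and comparison all 8 alternatives had 1 sign. The other 3 were CLDN1, CLDN10 and CLDN11 between the GFP-positive libraries, whose intervals included 0. Members called higher with RA in GFP-positive cells numbered 2 in the values reported, 1 with library size alone (EPCAM came to 0.99) and 0 with a pseudocount of 5 CPM or a 4-fold threshold. The member called lower with RA in GFP-negative cells was lost at 4-fold (0), and 3 in place of 5 were called lower in CTR GFP-positive cells at 4-fold, 4 with a pseudocount of 5 CPM and 7 with a minimum of 1 CPM or 4 reads. CLDN6 passed the threshold there as 1 member called higher with upper-quartile factors, TMM of the compared pair, a pseudocount of 0.25 CPM or thinned libraries. The median over the members between GFP-positive libraries was 0.40, 0.73 with a pseudocount of 0.25 CPM, 0.13 with 5 CPM and 0.22 with thinned libraries, and thinning, 1 random draw, took CDH1 there from 0.94 to 0.26. With 5 CPM the medians between fractions were -0.89 in CTR and -2.01 in RA-treated cultures, and thinning gave -2.98 in the latter. A larger pseudocount shrinks differences of low genes by construction. For the other moves the cause was not tested. Library size alone moved the median of all genes of at least 10 CPM from 0.078 to -0.059 between GFP-negative libraries and from 0.081 to -0.029 between CTR fractions, and CDH1 between GFP-negative libraries, the smallest difference called nonzero by its interval, ran from 0.12 to 0.25. In CTR GFP-negative cells 3 reads equal 0.639 CPM, which limits CLDN10 there.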

Other observations

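Genes of a membrane protease system of epithelia, chosen after their values were seen, had different levels in the 4 libraries. Matriptase, encoded by ST14, is a membrane serine protease that can cleave EPCAM, prostasin (PRSS8) acts with it, and SPINT1 encodes its inhibitor. ST14 was at 47.5 CPM (1218 reads) in RA-treated and 6.60 CPM (31 reads) in CTR GFP-negative cells, a ratio of 7.19 (interval 5.04 to 10.6), and at 4.34 CPM (116 reads) and 0.768 CPM (22 reads) in RA-treated and CTR GFP-positive cells, a ratio of 5.65 (interval 3.56 to 9.36). SPINT1 was at 149 and 81.8 CPM in RA-treated and CTR GFP-negative cells, a ratio of 1.82 (interval 1.64 to 2.02), and at 14.5 and 9.91 CPM in RA-treated and CTR GFP-positive cells. ST14 thus differed more than its inhibitor with RA in both fractions. PRSS8 was at 69.8 and 28.3 CPM in GFP-negative and 47.1 and 21.2 CPM in GFP-positive cells, RA first, and differed little between the fractions of a culture.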
